A study of Mus musculus with 15 samples.

Results

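The subject is the transcripts of the protein subunits of oxidative phosphorylation in macrophages of the mouse dura mater. The members were the rows of the count table whose gene symbols carry the subunit names of complexes I to V (Nduf, Sdh, Uqcr, Cox and Atp5 names for the nuclear genes, mt- names for the mitochondrial ones), without pseudogene symbols. They came to 101 of 53546 genes, of which 88 are encoded in the nucleus and 13 in the mitochondrial genome. Of these, 87 had enough counts to be tested, 80 nuclear and 7 mitochondrial. The 14 others were the nuclear Cox7b2, Ndufs6b, Cox8b, Cox6c2, Cox8c, Ndufb4c, Ndufb11b and Ndufa11b and the mitochondrial mt-Co2, mt-Atp8, mt-Atp6, mt-Co3, mt-Nd3 and mt-Nd4l. The name pattern also leaves out a few true subunits, such as Cox4i1 and Ndufab1, which are described apart from the members.

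The libraries were bulk RNA-seq of CD206-positive dural macrophages from C57BL/6J mice kept free of specific pathogens and left untreated. All mice, at every age, were Cx3cr1 GFP/wt, so that 1 of the 2 copies of the fractalkine receptor gene was replaced by GFP, and no group without that allele was compared. There were 5 ages with 3 libraries each, 15 in all: E14.5, an embryonic day, and P3, P10, P21 and P56, which count days after birth. The series text gives 3 to 5 mice per age and does not say how mice map to libraries, so p-values measure the spread between these libraries. The P56 libraries carry another batch label than the rest, and at P56 age and batch cannot be told apart.

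Total counts per library ran from 17550170 to 30614583. All 12 macrophage markers examined had at least 10 counts in every library, and their summed level was 1.73 to 2.65% of all counts. Markers of other cells were also present: 6 fibroblast genes summed to 60.5 to 2710 CPM of the total (counts scaled to a common library total), 6 mast cell genes to 1.87 to 1740 CPM, and 8 lymphocyte genes to at most 6.49 CPM. In bulk samples, fewer cells of a type and less RNA per cell cannot be told apart.

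Oxidative phosphorylation passes electrons from NADH and succinate through complexes I to IV to oxygen and uses the resulting proton gradient to make ATP in complex V. Complex II is built from nuclear genes alone. The other complexes join nuclear subunits, made in the cytosol and imported, to a small number of core subunits transcribed and translated inside the mitochondrion. Mitochondrial genes are read from long transcripts off the 2 strands of the circular genome, and nuclear subunit genes have been studied as targets of the factors NRF1, GABP (an ETS factor) and YY1. In macrophages the balance between this pathway and glycolysis is known to differ with activation state.

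The promoters of 4 nuclear subunits are shown, each of which holds both a short NRF1 core and an ETS core. They were taken from genes that passed the edgeR test over E14.5 to P21 described below, so passing was part of the choice. Atp5l also holds both cores but did not pass that test (adjusted p = 0.894), with 3 to 77 counts per library. It is not shown. For the 4 genes shown, adjusted p was 0.0383 for Sdhb, 0.0177 for Atp5k, 0.0312 for Cox6a1 and 0.0356 for Uqcr11. Each of these 4 no longer passed when some single library was left out. The 4 genes code for parts of complex II (Sdhb, the iron-sulphur subunit), complex V (Atp5k, the e subunit), complex IV (Cox6a1) and complex III (Uqcr11). Each runs from 250 bases before to 50 after the start of the gene, 5′ to 3′ on the gene's strand, from the RefSeq promoter table of build GRCm38.p6. Capitals mark GCATGCG (NRF1 core) and CCGGAAG (ETS core) on either strand. An 8-letter run in capitals is a pair of overlapping NRF1 core matches, 1 on each strand. The regions are chr4:140961021-140961320 (plus strand, Sdhb), chr5:108434350-108434649 (minus, Atp5k), chr5:115348909-115349208 (minus, Cox6a1) and chr10:80406772-80407071 (minus, Uqcr11).
Sdhb: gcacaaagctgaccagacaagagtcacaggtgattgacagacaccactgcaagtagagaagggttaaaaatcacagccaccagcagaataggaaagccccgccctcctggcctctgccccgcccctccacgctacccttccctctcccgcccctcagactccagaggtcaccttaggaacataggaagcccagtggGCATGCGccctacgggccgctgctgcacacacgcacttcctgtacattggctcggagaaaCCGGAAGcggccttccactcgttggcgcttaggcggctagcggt
Atp5k: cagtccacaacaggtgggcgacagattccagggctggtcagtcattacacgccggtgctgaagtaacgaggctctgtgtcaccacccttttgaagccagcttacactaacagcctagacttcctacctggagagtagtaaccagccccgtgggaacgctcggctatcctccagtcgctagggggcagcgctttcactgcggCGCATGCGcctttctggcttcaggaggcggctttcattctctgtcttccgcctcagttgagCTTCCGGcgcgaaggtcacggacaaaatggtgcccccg
Cox6a1: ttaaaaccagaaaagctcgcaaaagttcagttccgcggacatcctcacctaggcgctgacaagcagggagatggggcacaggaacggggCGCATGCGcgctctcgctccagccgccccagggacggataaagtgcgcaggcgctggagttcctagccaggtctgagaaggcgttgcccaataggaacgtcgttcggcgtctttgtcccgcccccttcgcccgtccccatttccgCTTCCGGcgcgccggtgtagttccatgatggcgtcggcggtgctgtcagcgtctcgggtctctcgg
Uqcr11: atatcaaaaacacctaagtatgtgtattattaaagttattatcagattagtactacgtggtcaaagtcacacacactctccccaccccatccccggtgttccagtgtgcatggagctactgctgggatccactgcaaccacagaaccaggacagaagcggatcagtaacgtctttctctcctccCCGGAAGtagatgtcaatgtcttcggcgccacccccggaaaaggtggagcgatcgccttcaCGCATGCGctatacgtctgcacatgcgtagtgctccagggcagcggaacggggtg

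The NRF1 core stood in 10 of the 69 nuclear members with a promoter in the table, against 3.64% of all 27025 promoters. The ETS core stood in 16 of the 69 (23.2%), against 9.12%, and the YY1 core ATGGCG in 17 (24.6%), against 9.24%. CCAAT, a common promoter element, stood in 30 (43.5%), against 37.9%. Among the members whose level differed with age (30 with a promoter), the shares were 20% for the NRF1 core, 33.3% for the ETS core and 33.3% for the YY1 core. Among the 37 tested members that did not pass, they were 10.8, 16.2 and 16.2%. All motifs were searched on both strands, and the median GC content was 57.3% in members and 52.7% in all promoters. These are matches of letters in a fixed window and do not show binding.

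The nuclear subunits as a class were highest at P10, and the mitochondrially encoded ones were not. The share of all counts in the 88 nuclear genes was 1.52% ± 0.067 in the E14.5 libraries (SD, n = 3 here and for each age). It was 1.74% ± 0.074 at P3, rose to a mean of 1.87% ± 0.20 at P10, and then was 1.22% ± 0.099 at P21, with 1.09% ± 0.18 in the P56 libraries. The lowest P10 library (1.64%) overlapped P3 (1.66 to 1.80%) and stood above every E14.5 library (1.47 to 1.60%) and every P21 library (1.11 to 1.29%). For the 13 mitochondrial genes, E14.5 had 0.556% ± 0.043, P3 had 0.541% ± 0.23 and P10 had 0.488% ± 0.043. P21 had 0.361% ± 0.096 and P56 had 0.411% ± 0.16. Their spread at P3 was wide, with 0.305% in replicate 1 and 0.767% in replicate 3, while the nuclear sums of the same libraries were 1.66 and 1.77%. At P56, replicate 4 held 0.599% and the other 2 libraries 0.332 and 0.301%. Both classes were also summed as CPM scaled by TMM, explained below, which sets most genes to a common level. Nuclear means were 13341 ± 470 (E14.5), 15754.5 ± 602 (P3), 18125 ± 2130 (P10), 13329 ± 1348 (P21) and 13059 ± 1819 (P56). In that order, mitochondrial means were 4882 ± 428, 4885 ± 2045, 4741 ± 512, 3933 ± 1070 and 4894 ± 1825. On this scale the P21 and P56 libraries overlapped those of E14.5 in both classes.

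The ratio of the mitochondrial to the nuclear sum averaged 0.366 ± 0.029 in the E14.5 libraries, 0.308 ± 0.12 in those of P3 and 0.265 ± 0.050 in those of P10. For P21 it was 0.294 ± 0.067 and for P56 0.367 ± 0.084. The E14.5 libraries (0.349 to 0.399) lay above all P10 libraries (0.226 to 0.321), and the other neighbouring ages overlapped. Because 6 of the 13 mitochondrial genes had almost no counts, the mitochondrial sum is that of 7 genes in practice.

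**Figure D1:**
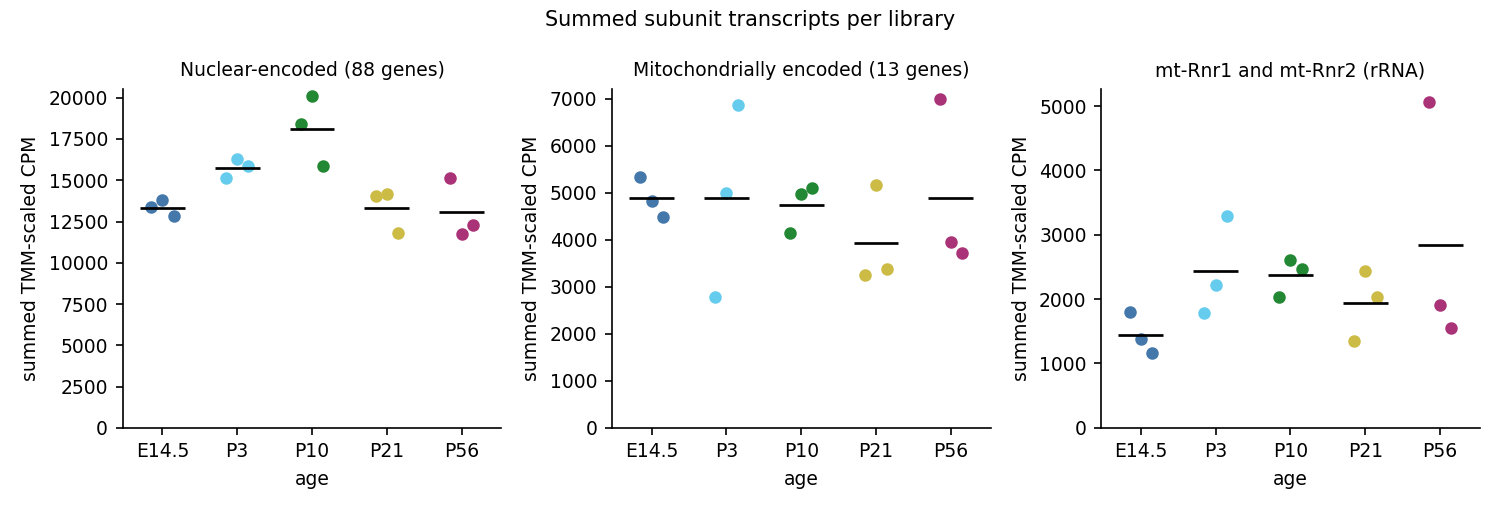
Summed level of the nuclear-encoded subunits, the mitochondrially encoded subunits and the mitochondrial ribosomal RNAs in each library (points; y axis, summed CPM scaled by TMM; x axis, age), with the mean of 3 as a line. The nuclear sum is highest at P10, where the 3 libraries sit between 15874 and 20109, and the mitochondrial sum at P3 runs from 2784 to 6870.

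From here on, levels are CPM scaled by TMM, a factor that sets most genes of each library to a common level, and changes are log2 differences between ages ± SE from edgeR's quasi-likelihood fit of all 15 libraries. A gene is called where its p-value, adjusted by Benjamini-Hochberg over all tested genes, is under 0.05.

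A test of whether a gene differed at any age from E14.5 to P21 (12 libraries, 1 batch label) called 32 of the 80 nuclear subunits (40%), against 12.3% of all 14287 genes tested. With TMM scaling and all libraries, edgeR called 0 of the 7 mitochondrial ones, with 2 of them under 0.05 before adjustment (mt-Nd6, adjusted p = 0.0913, and mt-Nd5, adjusted p = 0.117). The number of mitochondrial genes called was 2 in DESeq2, 2 with total count scaling, 2 without the filter on low counts, 2 without P3 replicate 1 and 1 without P3 replicate 3. In that order, 22.3, 15.7, 7.02, 9.51 and 9.85% of all genes were called. All 32 called nuclear subunits had their highest mean at P10. Of all 80 tested nuclear subunits, called or not, 69 were highest at P10 (86.2%), against 23.3% of all tested genes. By complex, 16 of 38 were called in complex I, 2 of 4 in complex II, 2 of 8 in complex III, 6 of 13 in complex IV and 6 of 17 in complex V. Here and below, complexes were assigned by gene name alone, so Ndufa4 and Ndufa4l2 count in complex I and Cox7a2l in complex IV.

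The count of 32 depended on single libraries. The members called, mitochondrial ones included, fell to 14, 11 and 8 without E14.5 replicate 1, 2 or 3, to 16 and 17 without P3 replicate 2 or 3, and to 14 and 10 without P10 replicate 1 or 2. Of all genes, 12.3% were called with every library. That share was 8.26, 6.64 and 7.3% without E14.5 replicate 1, 2 or 3. It was 9.32 and 9.85% without P3 replicate 2 or 3, and 9.06 and 8.98% without P10 replicate 1 or 2. Without each of the other 5 libraries in turn the count of members was 26 to 32, with 9.51 to 12.2% of all genes called. The 6 genes called without each library in turn were Atp5c1, Atp5g3, Atp5o, Ndufs7, Ndufc2 and Ndufb6. Of these, Atp5o shares 39.8%, Ndufb6 36.1% and Atp5c1 12.1% of the 31-base words of its longest transcript with other annotated genes. Their levels are uncertain to that extent.

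**Figure D2:**
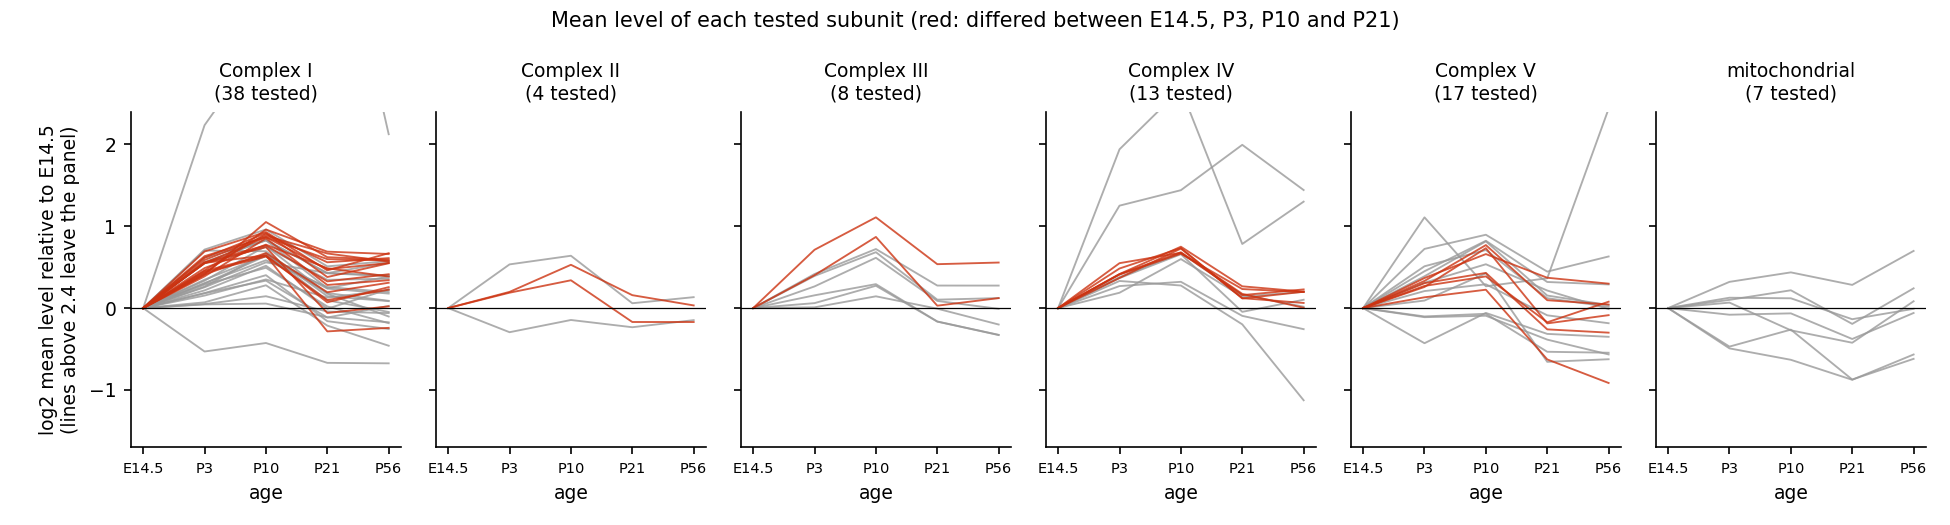
Mean level of each tested subunit at each age relative to its mean at E14.5 (log2; x axis, age), by complex for nuclear genes and together for the 7 mitochondrial genes. Red lines are the 32 nuclear genes called in the test over E14.5 to P21, all highest at P10; none of the 7 mitochondrial genes was called in this edgeR fit with TMM scaling.

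In complex I, the NADH dehydrogenase, Ndufs7 and Ndufc2 had the smallest p in this test. Ndufs7, which carries the last iron-sulphur cluster before the quinone, measured 98.0, 127 and 130 CPM in the E14.5 libraries. It measured 186, 175 and 190 at P3, 204, 234 and 209 at P10, 196, 179 and 162 at P21, and 184, 175 and 172 at P56 (adjusted p = 0.00648). Every later library was above every E14.5 library. Ndufc2, an accessory subunit of the membrane arm, went from 142, 169 and 160 CPM at E14.5 to 221, 239 and 247 at P3 and 281, 317 and 269 at P10 (adjusted p = 0.00654). It then measured 271, 274 and 202 at P21 and 249, 222 and 226 at P56, again without overlap with E14.5. Neither gene shared any 31-base word of its longest annotated transcript with another annotated gene, so reads of that transcript had no exact annotated copy. Exons outside that transcript were not searched.

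In complex II, the succinate dehydrogenase, the membrane anchor Sdhd had the smallest p (adjusted p = 0.0374). It measured 376, 379 and 351 CPM at E14.5, 419, 399 and 442 at P3, 477, 476 and 447 at P10, and 370, 337 and 276 at P21. The P10 libraries were above all libraries of the other 4 ages. Sdha, the flavoprotein of the same complex, took another course, with 574, 514 and 472 CPM at E14.5 and 514, 414 and 482 at P10, and was not called in any comparison.

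In complex III, which passes electrons from ubiquinol to cytochrome c, Uqcr10 had the smallest p (adjusted p = 0.0146). This small subunit measured 117, 139 and 132 CPM at E14.5, 149, 190 and 174 at P3, 237, 281 and 192 at P10, 158, 132 and 107 at P21, and 167, 117 and 139 at P56. The P10 libraries stood above all others. Uqcrc1, the core subunit with the most counts in this complex, ran from 435 to 476 CPM at E14.5 and from 503 to 599 at P10 and was not called.

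In complex IV, the cytochrome c oxidase, Cox8a had the smallest p (adjusted p = 0.0136), with 189, 192 and 175 CPM at E14.5, 227, 255 and 259 at P3, 285, 357 and 292 at P10, and 238, 244 and 186 at P21. P3 and P10 did not overlap each other or E14.5. Cox6a1, whose promoter is shown above, was called too (adjusted p = 0.0312), as was Cox6b1 (adjusted p = 0.0371). Cox6a1 shares 18% of its words with another annotated gene. Cox6b1 had the highest level per kilobase of exon among the 77 nuclear members whose exon length was known, at 673 CPM per kilobase on average over the 15 libraries.

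In complex V, the ATP synthase, Atp5c1 had the smallest p of all members (adjusted p = 0.00443). This gene for the central gamma shaft measured 345, 333 and 319 CPM at E14.5, 410, 396 and 397 at P3, 464, 410 and 429 at P10, 306, 279 and 299 at P21, and 443, 295 and 314 at P56. P21 lay below the 3 younger ages without overlap, and P56 replicate 4 stood apart from the other 2 P56 libraries. Atp5g3, a gene of the ring-forming c subunit, measured 581, 475 and 409 CPM at E14.5, 528, 543 and 533 at P3, 598, 626 and 486 at P10, 332, 336 and 280 at P21, and 317, 213 and 246 at P56 (adjusted p = 0.00632). All P21 and P56 libraries were below all younger ones.

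**Figure D3:**
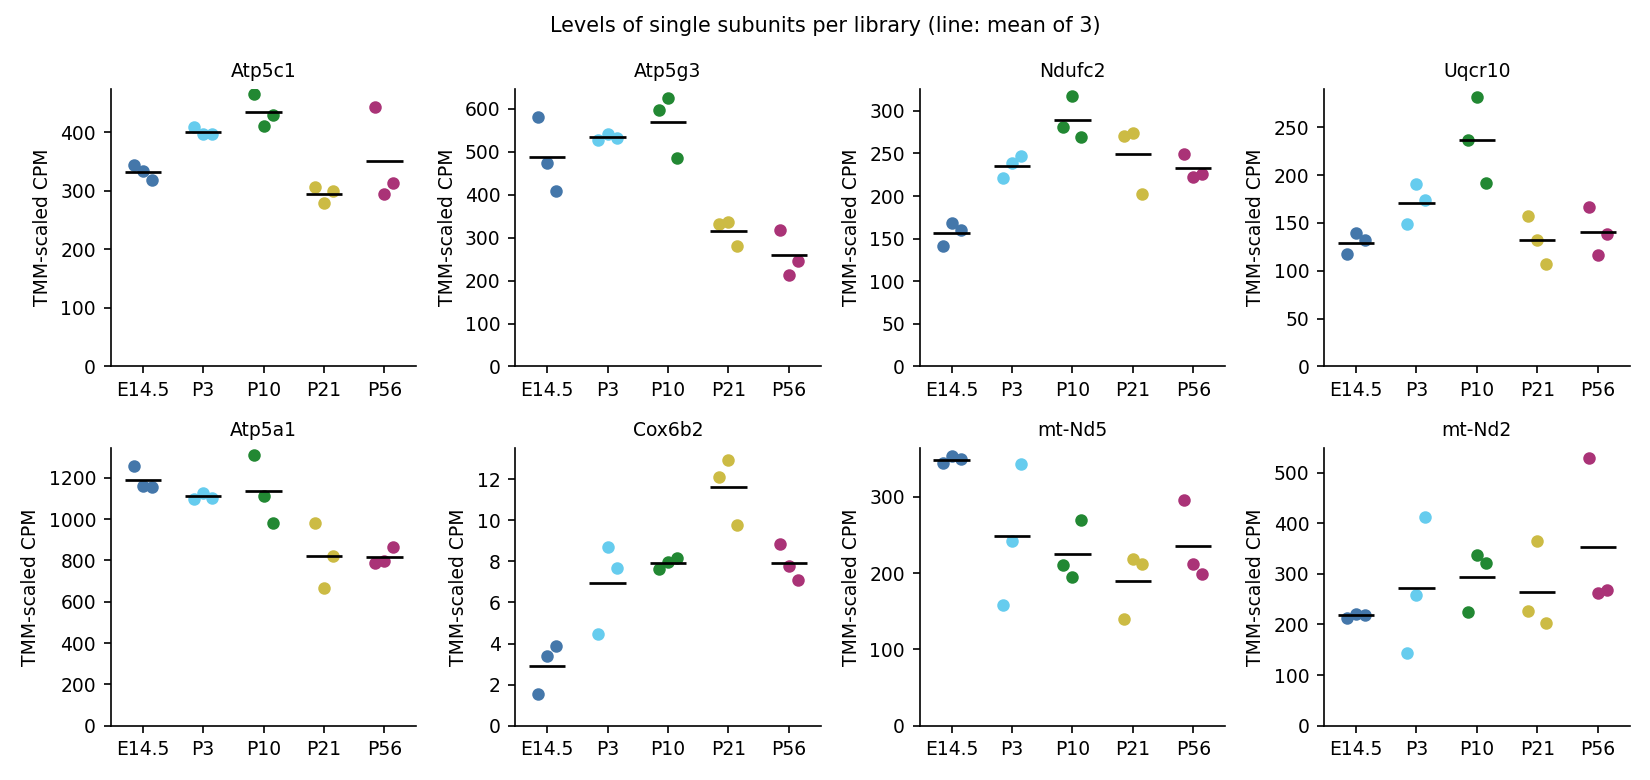
Level in each library (points; y axis, TMM-scaled CPM from 0; x axis, age) and mean of 3 (line) for 6 nuclear and 2 mitochondrial subunits. Ndufc2 is lowest at E14.5 (142 to 169), Atp5g3 lies at 213 to 336 at P21 and P56, and mt-Nd5 is tight at E14.5 (344 to 353).

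The 11 nuclear subunits that were not highest at P10 among E14.5, P3, P10 and P21 included some of the largest and most central proteins of the pathway. Atp5a1 and Atp5b (alpha and the catalytic beta subunit of the ATP synthase), Ndufs1 (the large iron-sulphur subunit of complex I), Sdha and Atp5g2 were highest at E14.5. Ndufb2, Ndufa9, Atp5l and Cox7a1 were highest at P3, and Cox6b2 and Ndufa4l2 at P21. Of these 11, none was called in the test over E14.5 to P21.

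Between neighbouring ages, few single subunits passed although most moved the same way. From E14.5 to P3, 75 of 80 nuclear subunits had a higher mean, with a median log2 change of 0.38 (0.0056 over all 14683 tested genes). The mitochondrial median was 0.07, with 4 of 7 higher. In 46 nuclear subunits all P3 libraries were above all E14.5 libraries, against 13.5% of all tested genes. Only Ndufs7 (0.63 ± 0.13, adjusted p = 0.0193) and Ndufc2 (0.59 ± 0.13, adjusted p = 0.036) were called, against 1.67% of all genes called higher. Ndufc2 lost the call without any 1 of the 6 libraries compared (adjusted p = 0.0718 to 0.159), and Ndufs7 lost it without any of them but E14.5 replicate 3. The median by complex was 0.43 in complex I, 0.19 in II, 0.33 in III, 0.41 in IV and 0.30 in V.

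From P3 to P10, 77 of 80 nuclear subunits had a higher mean, with a median of 0.25, and the mitochondrial median was 0.02. The nuclear median was 0.15 without P10 replicate 2. Of the nuclear subunits, 20 had all P10 libraries above all P3 libraries, against 9.8% of all tested genes. None was called, against 0.341% of all genes called higher; 9 had p under 0.05 before adjustment, and DESeq2 also called none.

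From P10 to P21, 77 of 80 nuclear subunits had a lower mean, with a median of -0.47, and all 7 mitochondrial ones were lower, with a median of -0.26. The mitochondrial median was -0.15 without P21 replicate 1 and -0.52 without P21 replicate 2. In 48 nuclear subunits every P21 library was below every P10 library, against 8.92% of all tested genes, and 49 had p under 0.05 before adjustment. After adjustment, Atp5g3 (-0.85 ± 0.16, adjusted p = 0.0282) and Uqcr10 (-0.84 ± 0.19, adjusted p = 0.0459) were called, against 0.184% of all genes called lower. Leaving out P10 replicate 1 or 2 or P21 replicate 2 or 3 ended both calls, with an adjusted p for Atp5g3 between 0.0612 and 0.113. Leaving out P10 replicate 3 ended that of Uqcr10 (adjusted p = 0.0517), and leaving out P21 replicate 1 that of Atp5g3 (adjusted p = 0.0574). DESeq2 called 16 members lower, with 748 of all genes called in either direction, against 168 in edgeR. Complex medians ran from -0.44 (II) to -0.51 (IV).

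From P21 to P56, the nuclear median was -0.03 and no member was called, against 0.102% of all genes called higher and 0.17% called lower; none had p under 0.05 before adjustment, and DESeq2 also called none. The 7 mitochondrial genes all had higher means at P56, with a median of 0.32. That median was 0.0058 without P56 replicate 4, the library with the highest mitochondrial sum, 0.20 without P21 replicate 1, 0.57 without P21 replicate 2 and 0.49 without P56 replicate 6.

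The span from E14.5 to P10 was added as a comparison after the levels by age had been seen, so that choice bears on its size. The nuclear median was 0.67 and the mitochondrial median -0.06, against 0.0165 over all tested genes. In 38 of 80 nuclear subunits the call was higher, against 5.81% of all genes, and none was called lower. In 61 the libraries did not overlap, against 17.8%. Those with the smallest p were Ndufs7 (0.87 ± 0.13), Ndufc2 (0.88 ± 0.13), Cox8a (0.75 ± 0.14), Ndufb10 (1.05 ± 0.20), Ndufa7 (0.90 ± 0.18), Ndufa13 (0.87 ± 0.18), Ndufb9 (0.93 ± 0.19), Ndufb11 (0.77 ± 0.16), Uqcr11 (1.11 ± 0.23) and Ndufs3 (0.77 ± 0.16), with adjusted p from 0.000924 to 0.00929. Of these, Ndufs3 shares 55% of its 31-base words with 3 other annotated genes together, 45.8% with Gm12251. That is the highest share among tested nuclear members, and the level of Ndufs3 is uncertain for that reason. Ndufa13 (33.2%), Ndufb11 (29%) and Ndufb9 (25.5%) share words too and are uncertain likewise. The count of 38 was 7 without P10 replicate 2, 12 without E14.5 replicate 3, 17 without E14.5 replicate 2, 20 without E14.5 replicate 1 or P10 replicate 1, and 35 without P10 replicate 3. Calls in either direction over all genes fell too, from 1316. They were 686, 738 and 690 without P10 replicate 2, E14.5 replicate 3 or E14.5 replicate 2. Without E14.5 replicate 1 or P10 replicate 1 they were 859, and without P10 replicate 3 they were 972.

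Complex I gave 20 of these calls among its 38 tested subunits, with 2 of 4 in complex II, 4 of 8 in complex III, 7 of 13 in complex IV and 5 of 17 in complex V. The complex V calls were Atp5d, Atp5e, Atp5h, Atp5j and Atp5j2, that is, the small delta and epsilon subunits of the shaft and the d, F6 and f subunits. The alpha and beta subunits, which form the catalytic head, were not called: Atp5a1 measured 1259, 1160 and 1153 CPM at E14.5 and 1310, 1113 and 981 at P10. Atp5b measured 1655, 1717 and 1547 CPM at E14.5 and 1757, 1519 and 1334 at P10.

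Exon length went along with the size of the change. Across the 77 nuclear members with a known length, the log2 change from E14.5 to P10 and log length had a Pearson r of -0.45 and a Spearman rho of -0.53, a description over genes that share libraries and are not replicates. Members of up to 1000 bases had a median of 0.75 (n = 19) and longer ones 0.63 (n = 58). Over all tested genes, those of up to 1000 bases had a median of 0.40 and longer ones -0.002. The part of length in the nuclear subunits' change was not tested.

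**Figure D4:**
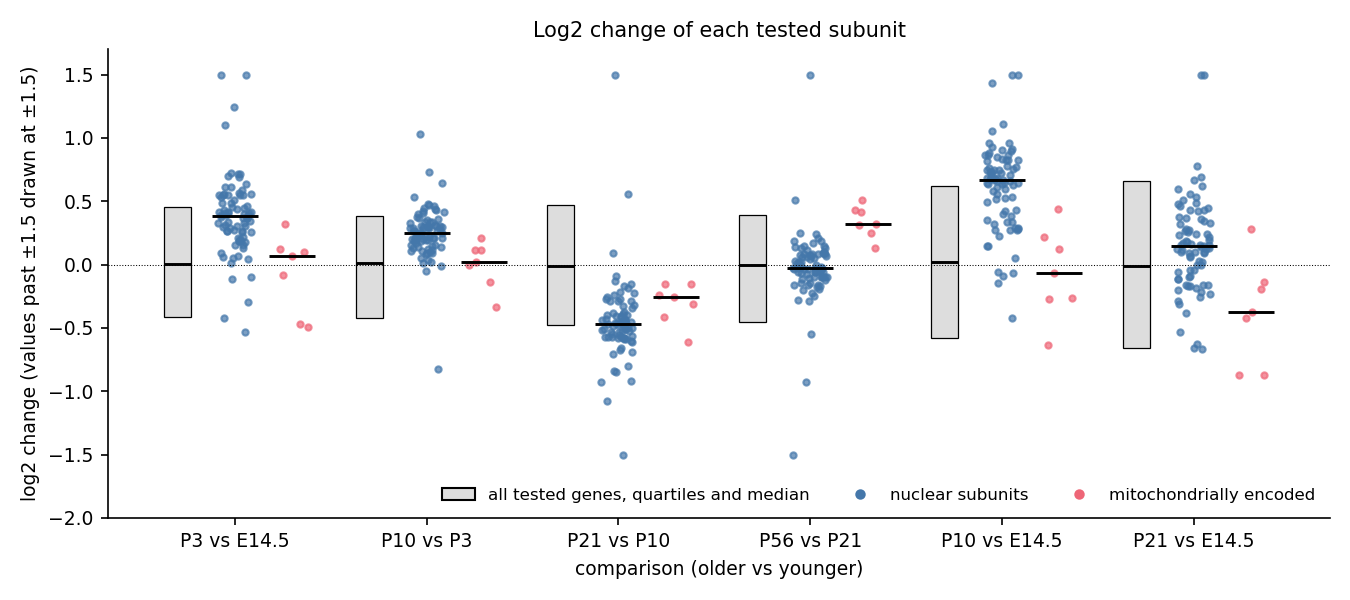
Log2 change of each tested subunit in 6 comparisons of ages (points; blue, 80 nuclear; red, 7 mitochondrial; lines, medians), beside the quartiles and median of all 14683 tested genes (grey box). Nuclear medians are 0.38, 0.25, -0.47, -0.03, 0.67 and 0.14 from left to right, and mitochondrial medians 0.07, 0.02, -0.26, 0.32, -0.06 and -0.38.

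Between E14.5 and P21, the nuclear and mitochondrial medians had opposite signs, 0.14 and -0.38. Relative to the total count instead of TMM, the nuclear median was -0.17 and the mitochondrial one -0.69. On that scale the median of all tested genes itself shifted, by -0.32 in this comparison, -0.18 from P10 to P21, -0.13 from P21 to P56 and -0.13 from E14.5 to P10, so the nuclear subunits were lower in share of reads and higher relative to most genes. The mitochondrial subunits were below the median of all genes on both scales. The mitochondrial median was -0.65 without P21 replicate 2 and -0.24 without E14.5 replicate 1. The nuclear median was 0.08, 0.05 and 0.23 without P21 replicate 1, 2 or 3.

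Ndufc2 (0.67 ± 0.13, adjusted p = 0.0045), Ndufs7 (0.60 ± 0.13, adjusted p = 0.0071) and Cox6b2 (1.99 ± 0.49, adjusted p = 0.0151) were higher at P21 than at E14.5, against 7.81% of all genes called higher. With total count scaling, Ndufc2 (adjusted p = 0.0882) and Ndufs7 (adjusted p = 0.16) were not called. Cox6b2, known as the testis form of a cytochrome c oxidase subunit, was at 1.52, 3.37 and 3.86 CPM at E14.5, 4.49, 8.68 and 7.66 at P3, 7.65, 7.95 and 8.14 at P10, with 12.1, 12.9 and 9.78 CPM in the P21 libraries and 8.86, 7.79 and 7.11 in those of P56. Its P21 libraries lay above every library of the other ages, and it lost the call without E14.5 replicate 1 (adjusted p = 0.0624) or 2 (adjusted p = 0.0504).

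Lower at P21 than at E14.5 were Atp5a1 (-0.53 ± 0.13, adjusted p = 0.018), Atp5g3 (-0.63 ± 0.16, adjusted p = 0.0212), Atp5b (-0.39 ± 0.11, adjusted p = 0.038), Ndufs1 (-0.67 ± 0.20, adjusted p = 0.0474), mt-Nd5 (-0.88 ± 0.25, adjusted p = 0.0369) and mt-Nd6 (-0.87 ± 0.27, adjusted p = 0.0467), against 4.37% of all genes called lower. Atp5a1 fell from 1259, 1160 and 1153 CPM to 979, 667 and 823, and Atp5b from 1655, 1717 and 1547 to 1246, 1320 and 1201. Ndufs1 measured 112, 158 and 142 CPM at E14.5 and 97.5, 86.1 and 75.1 at P21. In these 3 genes the E14.5 and P21 libraries did not overlap. The calls of Atp5b, Ndufs1, mt-Nd5 and mt-Nd6 were near the threshold. The call of Atp5b was lost without any 1 of the 6 libraries (adjusted p = 0.0627 to 0.139), and that of Ndufs1 without any of them but E14.5 replicate 1. Atp5g3 did not pass when E14.5 replicate 1 or 2 or P21 replicate 3 was left out (adjusted p = 0.101, 0.0547 and 0.0679). Atp5a1 did not pass when E14.5 replicate 1 or P21 replicate 2 was left out (adjusted p = 0.0655 and 0.0734). That of mt-Nd6 and that of mt-Nd5 were lost without any 1 of the 6 libraries, with adjusted p up to 0.149 and 0.137. The split of 3 members higher and 6 lower, 2 of them mitochondrial, also depended on the scaling. It was 6 higher and 2 lower with upper quartile scaling, with 0 mitochondrial genes called, and 1 higher and 12 lower with total count scaling, with 2. With RLE, the scaling of DESeq2, it was 3 higher and 5 lower, with 1.

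The 7 mitochondrial genes with counts did not share 1 course. mt-Nd5, a proton-pumping subunit of complex I, measured 344, 353 and 349 CPM at E14.5, 159, 242 and 343 at P3, 211, 195 and 269 at P10, 140, 219 and 212 at P21, and 296, 212 and 199 at P56. No later library reached the lowest E14.5 library. mt-Nd6, the subunit gene read from the other strand, measured 140, 137 and 132 CPM at E14.5, 62.8, 105 and 127 at P3, 93.3, 129 and 118 at P10, 62.2, 83.1 and 78.0 at P21, and 125, 71.3 and 69.6 at P56. All later libraries were below it as well. In the GRCm38 annotation mt-Nd5 (chrM:11742-13565, plus strand) and mt-Nd6 (chrM:13552-14070, minus strand) overlap at their ends. The library kit does not mark strand, so reads of either strand cannot be told apart, there or in the rest of mt-Nd6. The mt-Nd6 counts may therefore include plus-strand transcripts, and which strand they came from was not tested.

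mt-Nd2, also of complex I, measured 213, 221 and 219 CPM at E14.5 and 225, 336 and 322 at P10, so that its mean was higher at P10 while that of mt-Nd5 was lower. The ratio of mt-Nd5 to mt-Nd2 counts averaged 1.60 ± 0.013 in the E14.5 libraries and 0.957 ± 0.14 in those of P3. It was 0.785 ± 0.18, 0.752 ± 0.25 and 0.703 ± 0.13 in the P10, P21 and P56 libraries. Its lowest value at E14.5, 1.60, was above its highest in all later libraries, 1.10. The ratio of mt-Nd5 to mt-Nd6 was 2.56 ± 0.099 at E14.5 and lay between 2.02 and 2.73 on average at the later ages.

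The subunit genes with the highest measured levels per kilobase were mt-Cytb, the cytochrome b of complex III, and mt-Nd1 of complex I. Per kilobase of gene, mt-Cytb averaged 1380 CPM over the 15 libraries (789 to 1991) and mt-Nd1 1316 (764 to 1977). mt-Co1, the catalytic subunit of complex IV, averaged 554 (364 to 922), mt-Nd2 270.2 (139 to 509) and mt-Nd4 247 (150 to 394). mt-Nd6 averaged 197 (120 to 270) and mt-Nd5 137 (76.8 to 194). The ranges of neighbours in this order overlapped. None of mt-Cytb, mt-Nd1, mt-Co1, mt-Nd2 and mt-Nd4 was called in any comparison, and P3 replicate 1 was their lowest library among those of E14.5, P3 and P10 in every case. The 2 mitochondrial ribosomal RNAs stood outside the subunits: the ratio of mt-Rnr2 to mt-Rnr1 was 15.5 to 17.9 on average at E14.5 to P21 and 7.50 ± 0.75 at P56, the age with its own batch label.

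The 6 mitochondrial subunits without usable counts were nearly all ones with a close annotated nuclear copy. mt-Co2 had 0 counts in all 15 libraries, mt-Nd4l 0, mt-Atp8 0, mt-Co3 at most 1 and mt-Atp6 at most 3. In the GRCm38 sequence, 98.1 to 100% of the 31-base words of mt-Co2, mt-Atp6, mt-Co3, mt-Nd3 and mt-Nd4l also occur in another annotated gene. Those words lie in a stretch of chromosome 1 annotated as Gm28661, Gm10925, Gm28437, Gm28438 and Gm10222, which was at 0 to 59 counts. mt-Atp8 had 0 counts with 7.47% of its words shared, but only annotated transcripts were searched. On chrM it lies between mt-Co2 and mt-Atp6. The copies of these 2 genes lie on either side of an unsearched stretch of chromosome 1, with Gm10925 ending at 24614651 and Gm28661 starting at 24614885. Whether that stretch holds a copy of mt-Atp8 was not tested. mt-Nd4 (62.8% shared, with Gm28439) and mt-Co1 (63.9%) kept counts in every library, and mt-Nd1 shared none. How reads that map to more than 1 place were counted is not given in the sources used here, so a count of 0 for these genes does not measure their transcripts.

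**Figure D5:**
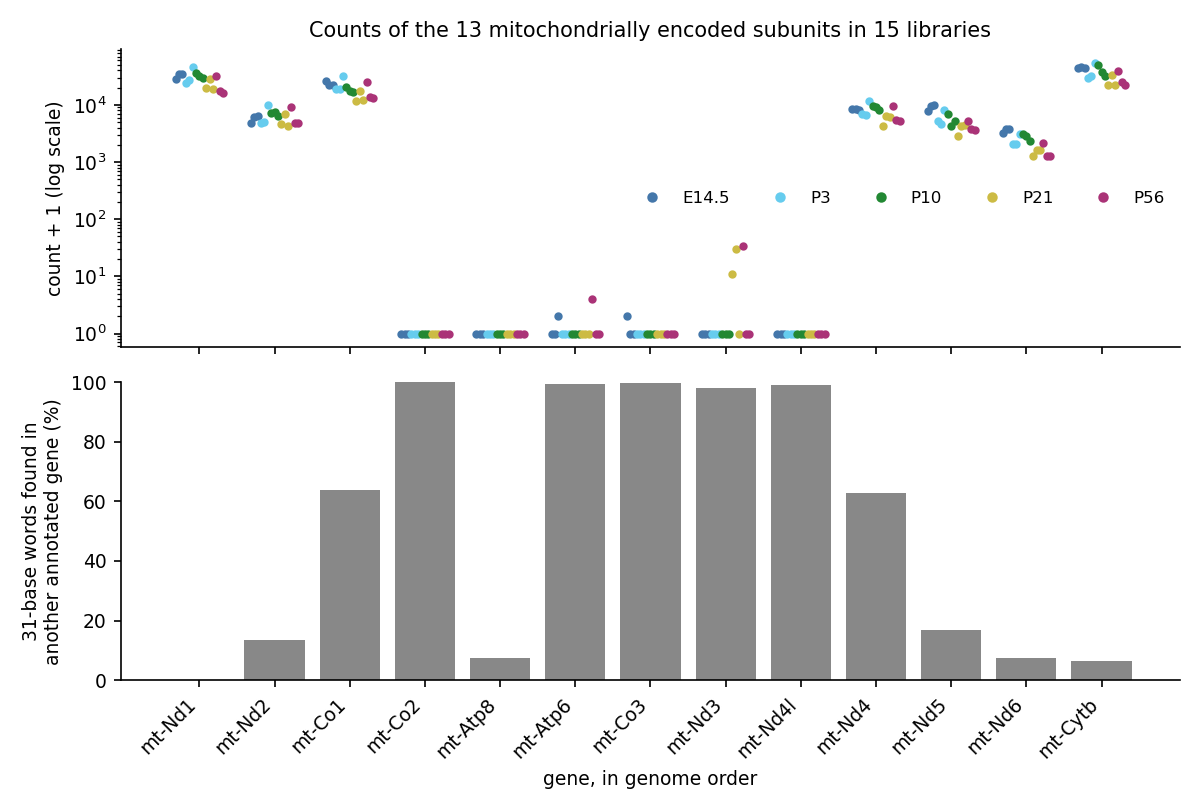
Counts of the 13 mitochondrially encoded subunits in 15 libraries (upper panel; count + 1 on a log axis, colour by age) above the share of their 31-base words found in another annotated gene (lower panel). The 5 genes at 98.1% or more have at most 33 counts, and mt-Atp8, at 7.47%, has 0. Sequence outside annotated transcripts was not searched for shared words.

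mt-Nd3 was the exception among the copied genes, and its first 40 bases are shown because they hold the only difference to its copy. The gene is at chrM:9459-9806 and Gm28438 at chr1:24612775-24613119 (minus strand), and the 345 aligned bases differ by T3C, counted from 1 at the first base of mt-Nd3. Capitals mark that base.
mt-Nd3: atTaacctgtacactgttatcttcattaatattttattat
Gm28438: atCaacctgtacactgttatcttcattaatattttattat

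mt-Nd3 had 10 counts in P21 replicate 1, 29 in P21 replicate 2, 33 in P56 replicate 4 and 0 in the other 12 libraries. Gm28438 had 1, 0 and 0 counts in those 3 libraries and 19 to 59 in the other 12. The 2 genes therefore split the libraries into the same groups of 3 and 12. The labels give 1 strain for all libraries, and which base the mice carried was not tested.

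Where a subunit exists as a widespread form and a tissue form, the widespread form was the more abundant. Per kilobase, Cox6a1 was above Cox6a2 (the form of heart and muscle) in 15 of 15 libraries, by at least 89 times, Cox6b1 above Cox6b2 by 51.5 to 308 times, and Cox7a2 above Cox7a1 (also of heart and muscle) by 25.2 to 125 times. Cox4i1 was above Cox4i2, a form known from lung and low oxygen, by at least 367 times, and Ndufa4 above Ndufa4l2, known as a hypoxia-induced gene, by at least 60 times. Cox8a had counts in every library, while its muscle form Cox8b had 1 count in 1 library. The Cox6b1 to Cox6b2 ratio ran from 154 to 308 in the E14.5 libraries and from 51.5 to 59.8 in those of P21, without overlap.

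The c subunit of the ATP synthase is encoded by Atp5g1, Atp5g2 and Atp5g3, whose mature proteins are the same. Atp5g3 was above Atp5g1 by 55.5 to 90.3 times and above Atp5g2 by 372 to 1610 times per kilobase in the 15 libraries. The merged exons were 2181 bases in Atp5g3 and 4912 in Atp5g1, so this ratio to Atp5g1 is larger than that of the counts. In E14.5 replicate 1 the counts were 13379 for Atp5g3 and 378 for Atp5g1. Atp5g1 measured 7.39 to 22.1 CPM and Atp5g2 0.258 to 0.916 CPM. Atp5g1 shares 14.8% and Atp5g2 19.6% of their words with other annotated genes, and Atp5g3 none, so the levels of the first 2 are uncertain.

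Other genes around the pathway showed a similar or a different course. Of 9 tested genes tied to the complexes but outside the name pattern (subunits, an electron carrier, assembly factors and an inhibitor), 7 were highest at P10, and 2 were called from E14.5 to P10: Higd2a (1.19 ± 0.14), a complex IV factor, and Cox4i1 (0.62 ± 0.17). Higd2a was also called from E14.5 to P3 (0.73 ± 0.14). Of 43 tested assembly factors, 5 were called higher at P10 than at E14.5, among them Sdhaf4 (0.83 ± 0.19), Cox14 (0.65 ± 0.15) and Pet100 (0.93 ± 0.23), and Coa5 was called lower (-0.89 ± 0.25). From E14.5 to P10, 5.81% of all 14683 tested genes were called higher, and 463 genes were called lower. The counts of the assembly factors and of the ribosomal proteins are to be read against those figures. The assembly factors' median was 0.31, as it was over the 77 tested mitochondrial ribosomal proteins (0.31), of which 6 were called higher. The 79 tested cytosolic ribosomal proteins had a median of 0.22 with 1 called. Among E14.5, P3, P10 and P21, the mean was highest at P10 in 24 of the 43 assembly factors, 51 of the 77 mitochondrial and 62 of the 79 cytosolic ribosomal proteins, against 23.3% of all tested genes.

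From E14.5 to P10, where the nuclear subunits had a median of 0.67, that of all tested genes was 0.0165. The 38 genes of mitochondrial DNA and RNA handling were near the latter, with a median of -0.08 and 18 of 38 higher. Of these, Hsd17b10 (0.77 ± 0.17), a part of mitochondrial RNase P, was called higher. Among E14.5, P3, P10 and P21, the mean was highest at P10 in 14 of the 38, against 23.3% of all tested genes. From E14.5 to P21, Lrpprc, which stabilises mitochondrial mRNAs, was lower (-1.80 ± 0.52, adjusted p = 0.0352). Mterf1a was lower too, with only 40, 32 and 42 counts at E14.5 and 0 in every P21 library. The 10 tested regulators of mitochondrial biogenesis had a median of -0.63 from E14.5 to P10. Gabpb1, a subunit of the ETS factor GABP, was lower at P10 (-1.07 ± 0.29, adjusted p = 0.0343) and at P21 (-1.17 ± 0.29, adjusted p = 0.0165), and Myc (-1.47 ± 0.38) and Pprc1 (-2.27 ± 0.67) were lower at P21. Over all 14683 tested genes, 463 were called lower at P10 than at E14.5, and 642 (4.37%) at P21.

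Among genes that feed the chain, those of the mitochondrial pyruvate carrier were higher at P10 than at E14.5 (Mpc1 1.32 ± 0.31, Mpc2 1.06 ± 0.20), as was the fumarase Fh1 (0.73 ± 0.19). The 19 genes of the tricarboxylic acid cycle and pyruvate entry had a median of 0.12, with 3 called higher and Ogdh called lower. Of 17 carriers and porins, Ucp2, an uncoupling protein common in macrophages, was higher (0.53 ± 0.14) and Slc25a12, the aspartate-glutamate carrier, lower (-0.87 ± 0.24). Over all 14683 tested genes, 853 (5.81%) were called higher and 463 lower from E14.5 to P10.

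Markers of other cells moved with the same ages. The 6 osteoclast markers (Acp5, Ctsk, Mmp9, Ocstamp, Dcstamp, Calcr) had a summed level of 118 to 549 CPM in the E14.5 libraries, and of 830 to 1330 CPM in those of P3. Their range was 826 to 1720 CPM for P10, 186 to 247 for P21 and 78.8 to 393 for P56. Of the 6, 5 had at least 10 counts in every library of E14.5, P3 and P10, and Calcr was at 0 in all P3 and P10 libraries. For the 6 fibroblast markers the range was 60.5 to 695 CPM at E14.5, 530 to 2450 at P3 and 653 to 2710 in the P10 libraries. It was 983 to 1840 CPM in those of P21 and 82.1 to 137 in those of P56. From P10 to P21 the median log2 change of these markers was -0.34, with 1 of 6 higher. The 6 mast cell markers summed to 1.87 to 119 CPM in the E14.5 libraries, 628 to 1740 in the P3, 172 to 429 in the P10, 3.95 to 10.8 in the P21 and 10.2 to 282 in the P56 libraries, and Ms4a2 was at 0 in all P21 libraries. The 6 erythroid markers summed to 106 to 117 CPM for E14.5, 108 to 264 for P3, 8.43 to 127 for P10, 1.81 to 5.11 for P21 and 2.53 to 6.9 for P56. The 12 macrophage markers summed to 17300 to 20800 CPM at P10 and 23100 to 26100 at P21. The 12 genes of the dissociation response were lowest at P3 (0.872 to 0.979% of counts) and at 1.61 to 1.91% at P10 and 1.91 to 2.09% at P21. The part of these cells and of handling in the subunits' levels was not tested.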

How the data were processed

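The authors deposited raw read counts per gene symbol for 15 libraries; per the labels' protocols, cDNA came from 500 pg of total RNA with the SMARTer v4 kit and libraries from Nextera XT, which has no molecular identifiers and does not mark strand. Tools listed in the submitters' processing notes are STAR 2.7.8a, featureCounts 2.0.2 and bcl2fastq 2.18; the build, annotation and rule for reads with several places are not given in the sources used here. Totals and groups are in the report.

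Counts of all genes were scaled by TMM, filtered with filterByExpr by age (14683 genes kept) and tested with edgeR 4.0.16 (quasi-likelihood, R 4.3.3), with Benjamini-Hochberg adjustment over all genes tested; the test over E14.5 to P21 used 12 libraries and 14287 genes. The fits were tested on simulated data with 200 changed genes, compared between P10 and E14.5. Of genes changed 2-fold, 35.4% were called, against 94.2% at 4-fold and 97% at 8-fold, and 5% of calls were false. Many true changes of 2-fold were thus missed, and smaller ones were not simulated. The alternatives were RLE, upper quartile and total count scaling, TMM without mitochondrial genes, other filters, a fit of the compared ages alone, a replicate block, DESeq2 1.42.0, limma voom 3.58.1 and leaving out each library. Exon lengths (all annotated exons of a gene merged) and 31-base words (of the longest annotated transcript of each member) came from GENCODE M21 (GRCm38). That annotation held 50067 of 53546 symbols (93.5%), and 77 of the 80 tested nuclear members matched. Replicate numbers did not pair libraries: over 18 same-number pairs the correlation of deviations from the age means was -0.0553 to 0.0618.

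The members and lists were chosen with earlier results of these data known. Genes named were the 13 mitochondrial members, up to 10 nuclear members called per direction and comparison by smallest p, the highest and most significant nuclear member of each complex, isoform pairs, up to 3 called genes of each other list and members making up counts of 5 or fewer; a few others were named after their values were seen.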

Additional observations from a re-analysis of the deposited data

Results flagged for a closer look

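A total of 4 members left out of the tests for low counts nevertheless held more than 3 counts in at least 1 library, and there was no control group to set them against. mt-Nd3 reached 33 counts in P56 replicate 4 and was above 3 counts in 3 libraries, as described with its chromosome 1 copy. Cox6c2 reached 15 counts in P10 replicate 1, Ndufs6b 11 in the same library and Ndufa11b 5 in P3 replicate 1, each above 3 counts in 4 libraries. With 3 libraries per age, single libraries were not tested as outliers.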

How the results depend on the processing

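Directions of the nuclear medians held under all scalings and tools from E14.5 to P3, P3 to P10, P10 to P21 and E14.5 to P10. From E14.5 to P21, total count scaling gave -0.17 for the nuclear and -0.69 for the mitochondrial median, because all genes shifted on that scale. Counts of called members were what moved. From E14.5 to P3 (2 called) they were 1 with total count scaling, without the filter or with the replicate block, 5 in a fit of these ages alone and 7 in DESeq2. Over all genes, the calls were 302 in the main fit and 286, 330, 306, 681 and 821 in that order. From P10 to P21 (2 called) they were 1 with upper quartile scaling, 12 with total counts, 5 without the filter or in limma voom, 0 in a fit of these ages alone, 6 with the replicate block and 16 in DESeq2. Over all genes, the calls were 168 in the main fit and 133, 144, 242, 261, 73, 258 and 748 in that order. From E14.5 to P21 (9 called) a fit of these ages alone gave 5, and the split of 3 higher and 6 lower (2 mitochondrial) was 6 and 2 (0) with upper quartile scaling, 1 and 12 (2) with total counts and 3 and 5 (1) with RLE. For these settings in turn, the calls over all genes were 1438, 1821, 2240 and 1797, against 1789 in the main fit. From E14.5 to P10 (38 called) total counts gave 15, with 1316 of all genes called, as in the main fit. Over all 4 ages from E14.5 to P21 (32 called), DESeq2 called 56, among them the 32, total counts 46 with 30 of the 32 and 2 mitochondrial genes, and the replicate block 34 with 24 of the 32 and 1 mitochondrial gene. Of all genes, 12.3% were called in the main fit, 22.3% in DESeq2, 15.7% with total counts and 11.1% with the replicate block. Causes were not tested. Leaving out 1 library at a time gave 0 to 1 members called from E14.5 to P3, 0 to 1 from P10 to P21 and 3 to 8 from E14.5 to P21. It gave 7 to 35 from E14.5 to P10 and 8 to 32 over all 4 ages. Over all 4 ages, 6.64 to 12.2% of all genes were then called. The mitochondrial median from E14.5 to P21 ran from -0.65 to -0.24. Nuclear medians ran from 0.35 to 0.43 from E14.5 to P3, 0.15 to 0.32 from P3 to P10, -0.57 to -0.36 from P10 to P21, -0.20 to 0.06 from P21 to P56, 0.05 to 0.23 from E14.5 to P21 and 0.53 to 0.76 from E14.5 to P10. The mitochondrial medians of the other comparisons crossed 0 from E14.5 to P3 (-0.24 to 0.33), P3 to P10 (-0.27 to 0.35) and E14.5 to P10 (-0.14 to 0.01). Restricting nuclear members to those with few shared words kept every median (0.39 from E14.5 to P3, 0.68 from E14.5 to P10, both chosen after seeing the data).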
